A study of Drosophila melanogaster with 4 samples.

Results

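The right arm of the third chromosome of *Drosophila melanogaster*, 3R, carried 2081 regions enriched for RNA polymerase II (Pol II) outside the part nearest its centromere, out of 9885 regions in the whole series. They were all regions of the list made from the replicate set whose midpoint lay more than 2 Mb from the left end of the 3R sequence, which is its centromere end. They are called members here. The study measured Pol II by chromatin immunoprecipitation followed by sequencing (ChIP-seq) in whole embryos of the wild-type strain Oregon-R (Oregon-R-modENCODE), aged 14 to 16 h and fixed with 1.8% formaldehyde. There were 2 ChIP libraries, made with a commercial (abcam) Pol II antibody, and 2 input libraries of chromatin DNA, each paired with a ChIP library. The labels name no mutation, transgene or treatment, so all embryos formed a single group. The same stretch of 3R held 1096 of the 5192 regions of replicate 1 and 1103 of the 5199 regions of replicate 2. Positions follow FlyBase release 5, counted from 1.

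Pol II transcribes all protein-coding genes. In ChIP-seq it usually piles up at the start of a gene and spreads over the gene body where transcription is heavy, so an enriched region can be a short peak or a long domain. In whole embryos all tissues are mixed, and fewer cells with Pol II at a site cannot be told apart from less Pol II per cell. Arm 3R is known for both Hox gene clusters of the fly. Hox genes encode homeodomain transcription factors that give the segments along the body axis their identity.

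The stretch was 25.9 Mb long and its members covered 4.99 Mb, or 19.3% of it, at 80.3 members per Mb. The replicate lists held 42.3 and 42.6 regions per Mb (42.4 ± 0.2, SD, n = 2) and covered 10.3% and 10.4%. Nothing in the files tests whether this stretch is euchromatin, the open and gene-rich chromatin its name implies, since the name rests on the distance from the centromere end alone. The boundary did not separate a sparse part from a dense one. Within the first 2 Mb of 3R the whole-series list had 94.5 regions per Mb, and the replicates had 51.0 and 56.0. The 5 members just inside the boundary were 1913 to 6040 bp wide with scores of 0.300 to 1.46. The 5 regions just outside it were 1021 to 2646 bp wide with scores of 0.378 to 2.98. The score of 2.98 belonged to the region of 1021 bp, which overlapped no region of either replicate. The next highest of these 5 was 0.932. The score is the authors' own value for each region, of a formula not given in the sources used here, and is used only to rank and describe regions within a list, apart from setting the replicates side by side.

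**Figure D1:**
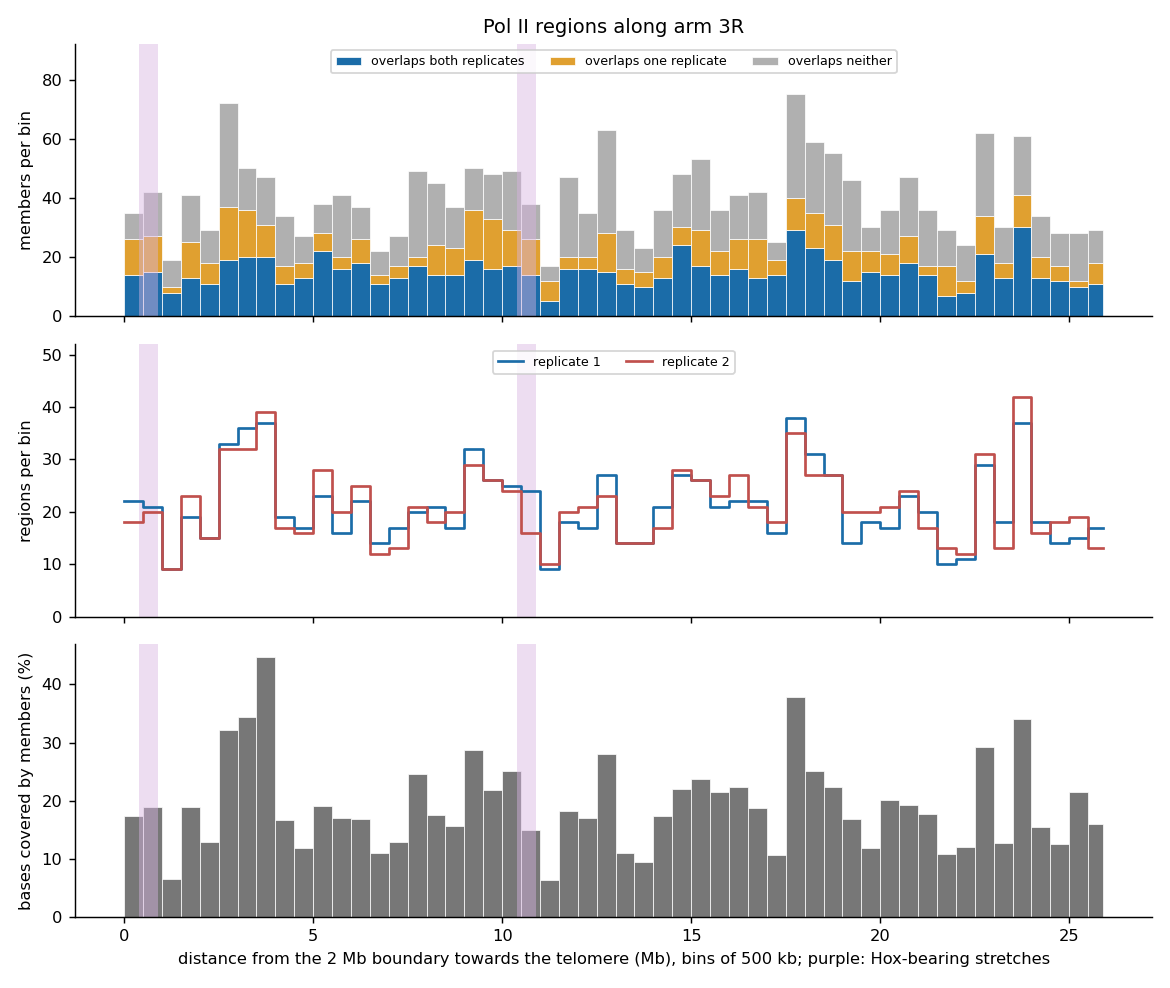
Pol II regions in 500 kb bins along 3R, from the 2 Mb boundary towards the telomere (x axis, Mb). The upper panel counts members by the replicates they overlap, the middle panel counts the regions of each replicate list, and the lower panel gives the percent of bases that members cover. Purple bands are the Hox-bearing stretches, and the last bin is shorter than the others. Counts ran from 17 to 75 members per full bin, and both replicates followed the same peaks and troughs.

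Pol II regions came in dense and sparse stretches with no drift in number from the centromere side to the telomere. Across 51 full bins of 500 kb the median was 38 members, the lowest 17 and the highest 75. In the 3 equal parts of the stretch, from the centromere side outwards, the whole-series list had 77.8, 80.1 and 83.0 members per Mb. Replicate 1 had 42.7, 42.4 and 41.8 regions per Mb in these parts, and replicate 2 had 42.5, 42.0 and 43.2. The order of the parts therefore differed between the lists. The bin number and the member count had a Spearman rho of -0.01 across the 51 bins. Regions of both replicates followed each other closely. Their counts per bin had a rho of 0.85 over the 51 bins, which share libraries with their neighbours and are given as a description, and 33 bins differed by at most 3 regions.

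The densest bin, from 19500001 to 20000000, held 75 members, 38 regions of replicate 1 and 35 of replicate 2, and its members covered 37.8% of its bases. The bin from 4500001 to 5000000 came next, with 72 members, 33 and 32 replicate regions, and 32.2% covered. It was followed by 14500001 to 15000000 with 63 members, 24500001 to 25000000 with 62 and 25500001 to 26000000 with 61. The last of these had the highest counts in replicate 2 (42) and 37 regions in replicate 1, so the order of dense bins depended on the list. The bin from 14500001 to 15000000 had only 27 and 23 replicate regions, and 35 of its 63 members overlapped neither replicate. Coverage had another order. The bin from 5500001 to 6000000 held 47 members but had the highest coverage, 44.7%, and it held the widest member of the arm with the wide members on both of its sides.

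The sparsest bin was 13000001 to 13500000, with 17 members, 9 regions of replicate 1 and 10 of replicate 2, and 6.39% of bases covered. The bin from 3000001 to 3500000 held 19 members and 9 regions of each replicate. Next were 8500001 to 9000000 with 22 members, 15500001 to 16000000 with 23 and 24000001 to 24500000 with 24. The sparse bins were sparse in every list, with at most 14 regions of either replicate. The densest bin held 4.41 times as many members as the sparsest.

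Spacing was uneven at a finer scale too. The median gap between neighbouring members was 3555 bp, with quartiles of 1109 and 10441 bp, while the mean was 10044 bp. Gaps under 1 kb were 487 of 2080 (23.4%). Most of the arm free of members lay in longer gaps. Those of 10 to 50 kb, 453 in number, made up 46.6% of the gap bases, those of 50 to 100 kb 21.9% and those of 100 kb or more 9.89%. In the replicate lists, which hold fewer regions, the median gap was 9368 and 9762 bp.

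The longest gap among members ran over 184 kb from 3114835 to 3298487. It was followed by 183 kb from 6799205 to 6981772, 171 kb from 10730608 to 10901829, 170 kb from 14239178 to 14409145 and 131 kb from 8609729 to 8740886. The gaps that start at 3114835, 10730608 and 8609729 held no region of either replicate. The 6799205 gap held 1 region of replicate 2, and the 14239178 gap held 1 of replicate 1. There were 16 gaps of 100 kb or more, which added up to 2.07 Mb. Depth is unknown, so a gap shows that no region was listed and not that Pol II was absent.

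Close neighbours formed runs. Members less than 1 kb apart made up 330 runs of at least 2, which together held 817 members (39.3%), and 37 runs held 4 or more. The longest run reached from 5698268 to 5818612. It was 120 kb long with 5 members, and members covered 99.2% of it. The next ran 41.2 kb from 11106316 to 11147535, with 5 members covering 94.6%. The most members in a run were 6, as between 5509012 and 5537383, a run of 28.4 kb. Neither width nor score went with the gap to the next member, with rho of -0.06 and 0.02 over 2080 neighbouring pairs. Scores of neighbouring members had a rho of 0.02 and widths one of 0.04, so along the arm as a whole a high member did not have a high neighbour more than a low one did.

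Member widths were most frequent in 2 ranges. The first was a pile-up at the lower limit of the list, with 395 members (19.0%) between 1000 and 1199 bp, none of which overlapped both replicates. Counts fell from 239 at 1000 to 1099 bp to 74 at 1400 to 1499 bp. The replicate lists piled up likewise at their own lower limit, with 94 regions each at 1300 to 1399 bp, then 63 and 60. A second group lay around 2 kb, with 468 members (22.5%) of 1900 to 2299 bp, of which 288 (61.5%) overlapped both replicates. The replicate lists, whose narrowest regions on 3R were 1301 and 1306 bp, had the same second group. It held 412 regions (37.6%) of replicate 1 and 451 (40.9%) of replicate 2. The median width was 1947 bp for members and 2057 and 2060 bp for the replicate regions (2059 ± 2, SD, n = 2).

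Within the 2 kb group the score climbed steeply with width. Among members that overlapped both replicates, the median score was 0.373 for the 40 of 1900 to 1999 bp, 0.533 for the 85 of 2000 to 2099 bp, 0.718 for the 102 of 2100 to 2199 bp and 1.06 for the 61 of 2200 to 2299 bp. Over all 288 of them the Spearman rho between width and score was 0.78, and it was 0.80 and 0.84 among the replicate regions of this size. Among the 478 both-replicate members of 2300 bp or wider the rho was 0.02, and over all 629 members of that size it was 0.22. Below 1900 bp it was negative, at -0.43 over 22 both-replicate members, -0.53 over all 984 members and -0.16 in each replicate list. These are correlations across regions and not across replicates, and the score and the width come from the same signal. A width of 2.2 kb thus went with scores as high as those of much wider regions. Of the 161 members with a score of 1 or more, 85 were narrower than 3 kb. That share was lower than among all 2081 members, whose upper quartile of width was 2607 bp. The median width was 2857 bp for the 161 and 1947 bp for all members.

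**Figure D2:**
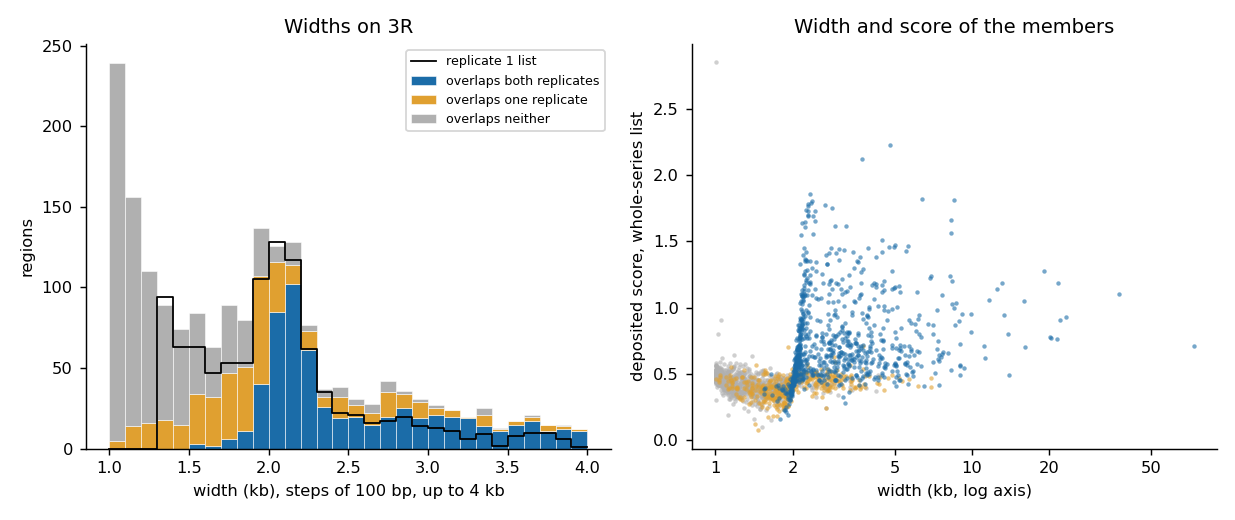
Left, widths of 3R members up to 4 kb in steps of 100 bp (bars, coloured by the replicates they overlap) and of replicate 1 regions (line). Right, width (log axis) against the deposited score for each of the 2081 members. The bars pile up at the narrow end, where the list starts, and again near 2 kb. There 61.5% of members overlapped both replicates and the scores form a steep ridge.

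Support by the replicates was higher at high scores and large widths, but did not rise at every step. Overlap of at least 1 bp was counted. Of the 2081 members, 788 overlapped both replicates (37.9%, Wilson 95% interval 35.8 to 40.0, against 37.8% of all whole-series regions). One replicate alone was overlapped by 440 members (21.1%, interval 19.4 to 23.0, against 21.1%), and neither by 853 (41.0%, interval 38.9 to 43.1, against 41.1%). These shares are near those of the whole list and show nothing particular to 3R. The intervals cover counting error only, and the whole-series list stands for the same libraries as the replicate lists. Members found in one replicate fell evenly on both libraries, 217 on replicate 1 and 223 on replicate 2.

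Members in both replicates made up 57.5% of the bases covered, and their medians were 2718 bp for width and 0.663 for score. Those in one replicate had medians of 1914 bp and 0.409, and those in neither had 1248 bp and 0.428. When members were ranked by score into 10 groups of nearly equal size, the top group held 207 of 209 in both replicates and the next 205 of 208. The share was 80.2% among members with scores of 0.536 to 0.644 and 31.7% among those with 0.489 to 0.536, and no lower group exceeded 14.8%. The change from mostly supported to mostly unsupported thus fell near a score of 0.536. In groups ranked by width, the share in both was 79.4% at 2101 to 2312 bp. It was 58.5% at 2322 to 2898 bp and 76.4% at 2903 to 3898 bp. Each of the 104 members of 5000 to 9916 bp overlapped at least one replicate, and 98 of them both, though wider members have more bases at which to overlap. Members in both, one or neither replicate lay about as close to others, with a median gap to the nearest member of 1662, 1492 and 1598 bp.

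Few unsupported members of 3R scored high. On 2L, 3L and the X the highest unsupported scores were 0.901, 2.48 and 3.09. The member from 17592748 to 17593748 had the highest score of the arm, 2.85, and rank 7 in the whole list, yet was 1001 bp wide, the least width listed, and overlapped no region of either replicate. The next were 22973042 to 22974091, with a score of 0.908, and 25563576 to 25564598, with 0.803. They were 1050 and 1023 bp wide and lay 7 and 36 bp from the next member. Widths of 1300 bp or less, under the least width of a replicate region, were found in 470 of the 853 unsupported members. Over all 2081 members 505 were this narrow, and 0 of them overlapped both replicates. The part of this difference in least width in the missing support was not tested.

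Where a member matched exactly 1 region in each replicate, as 692 did, edges were close. The median distance between the replicates was 78 bp for starts and 72.5 bp for ends. The whole-series version was wider than both replicate versions in 606 of the 692 (87.6%), with median widths of 2464 bp against 2121 and 2129 bp. Members joined 2 or more regions of replicate 1 in 64 cases and of replicate 2 in 68, and of both in 30.

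The 10 highest-scoring members shared by both replicates were not set apart by their width. They scored 1.77 to 2.23 and spanned 2.29 to 8.49 kb, with 6 under 3 kb and a median of 2532 bp. That median lay between 1947 bp, the value over all 2081 members, and 2718 bp, the value over the 788 in both replicates. A single region in each replicate was found at 692 of these 788 and at 9 of the 10. The highest, from 17121258 to 17126070, was 4786 bp wide with a score of 2.19 in replicate 1 and 4190 bp wide with 2.27 in replicate 2, ranked 8 and 9 in these lists. The member from 10956387 to 10958727 was 2332 bp wide with a score of 1.72 in replicate 1 and 2233 bp wide with 2.02 in replicate 2. The 6395 bp member from 2910650 to 2917044 scored 1.88 and 2.11. Next in order beside these were 21297489 to 21299876, with replicate scores of 1.86 and 1.90, 6088964 to 6091311, with 1.88 and 1.86, and 19684128 to 19686418, with 1.80 and 1.76. The scores of these last members were nearly the same in both libraries. The member from 17013065 to 17015740 scored 1.88 and 2.05, and that from 7393874 to 7396159 scored 1.70 and 1.86. The remaining members of the 10, from 22464698 to 22468434 and from 22443838 to 22452329, differed more between replicates and are described with their neighbours.

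Wide domains were more numerous in the centromere-side part than in either other part, but the counts were small. Members of 10 kb or more numbered 19 (0.913%, against 0.931% of all whole-series regions), and all 19 overlapped both replicates. A wide member has more bases at which to meet the 1 bp rule, so this overlap says little about matching extent. The 19 spanned 392 kb and had a median score of 0.907, with none above 1.27. Of the 19, 10 lay in the centromere-side part of the arm, 4 in the middle part and 5 in the outer part. Each replicate list had 5, 2 and 2 regions of 10 kb or more in these parts. In both lists several of the 5 lay in the longest run, from 5698268 to 5818612. Between 5 and 6 Mb lay 5 of the 19. Among these were the widest member and its wide neighbours, which belong to a single run of 120 kb. Of the 14 regions of 20 kb or more in the whole list, 8 were on this stretch of 3R, which held 2081 of all 9885 regions. All wide members of that run are among the 8. The 10 widest were 16.1 to 73.1 kb wide, and at 1 of them each replicate had a single region.

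The widest member lay from 5721135 to 5794223 and scored 0.712. It was broken into 9 regions of 1896 to 11154 bp in replicate 1, with scores of 0.578 to 0.890. In replicate 2 it was 8 regions of 2343 to 27410 bp, with scores of 0.582 to 0.821. A gap of only 35 bp parted it from the next member, from 5794259 to 5814669, which was 20.4 kb wide and made of 3 and 4 replicate regions. On its other side the 22.1 kb member from 5698268 to 5720336 was a single region of 18526 bp with a score of 1.01 in replicate 1 and of 18658 bp with 0.974 in replicate 2. The domain was therefore seen in both libraries, as a chain of regions over much the same bases, but where one region ended and the next began differed between the lists.

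**Figure D3:**
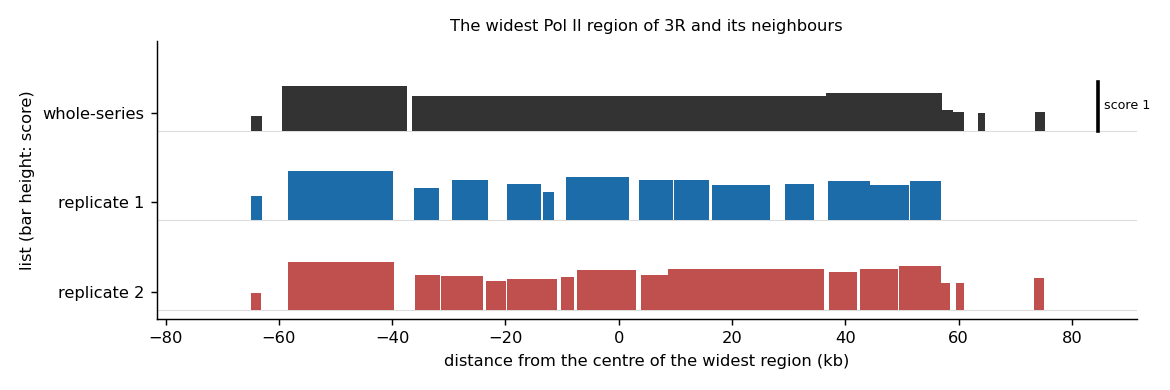
Regions of the whole-series list and of both replicates within 80 kb of the centre of the widest 3R member (x axis, kb from its centre). Bar width is region width and bar height is the score, with a scale bar for a score of 1. The 73.1 kb whole-series region in the centre is 9 regions in replicate 1 and 8 in replicate 2, and the region on its left is a single region in all 3 lists.

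Other wide members were broken up to different degrees. The 37.5 kb member from 5242639 to 5280169 held one region of 27267 bp in replicate 1, with 3 smaller ones, and one of 30660 bp in replicate 2, with 1 smaller one. From 12064699 to 12086406, replicate 1 had a single region of 20345 bp with a score of 1.23, and replicate 2 had 3 regions with scores of 0.754 to 1.83. Near the telomere, the 19.0 kb member from 27418837 to 27437856 had the highest score of the 19, 1.27, and its largest replicate regions were 18760 and 16991 bp. The member from 27059852 to 27080051, 20.2 kb wide, was 3 and 4 replicate regions. Those from 11111173 to 11134378, 5163978 to 5185431 and 17866871 to 17882955 were each 3 to 5 regions in either replicate.

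Against the other arms most like it, 2L, 3L and the X, each without its 2 Mb nearest the centromere, 3R had nearly the same density of Pol II regions, and its share of wide ones was higher in the replicate lists but not above that of 3L in the whole-series list. Its density was 42.4 ± 0.2 regions per Mb against 42.9 ± 0.04 for the 3 arms together (SD, n = 2), a ratio of 0.989 ± 0.005. By arm, 3R stood above 2L (ratio 1.04 ± 0.004), below 3L (0.937 ± 0.018) and level with the X (0.997 ± 0.002) in the replicates (SD, n = 2). Covered shares were 10.3% and 10.4% on 3R against 9.87% and 9.95% on the 3 arms, a ratio of 1.04 ± 0.003. Regions of 10 kb or more numbered 9 in each replicate on 3R (0.821% and 0.816%) and 13 in each on the 3 arms (0.473% and 0.474%), a ratio of 1.73 ± 0.01 (SD, n = 2). By arm the ratio was 1.40 ± 0.01 over 2L, 1.29 ± 0.12 over 3L and 5.33 ± 2.50 over the X, which had only 1 and 2 such regions. The counts were small, and part of those on 3R came from a single locus. In the longest run, from 5698268 to 5818612, several regions of each replicate reached 10 kb. Among them were regions of 18526 and 11154 bp in replicate 1, and of 18658 and 27410 bp in replicate 2. The ratio without this run was not computed. In the whole-series list, with 19 such regions on 3R and 45 on the 3 arms, the ratio was 1.06, and over 3L, with 21, it was 0.816. For regions of 5 kb or more the replicate ratio was 1.48 and 1.33. Over the 3 arms together, the ratios of density, coverage and wide regions differed from 1 by more than their SD between the replicates. That of the median gap, 0.991 ± 0.012, did not. An SD over 2 lists does not measure counting error, and for wide regions it was small because both lists held the same counts. With a 1 Mb boundary the density ratio was 1.02. No test over samples could be made with 2 libraries of a single group. Median widths were 2057 and 2060 bp on 3R against 2022 and 2050 bp on the 3 arms (2036 ± 19, SD, n = 2), a difference close to that spread. The median score on 3R, 0.682 and 0.675, was slightly above that of 2L (0.681 and 0.668) and 3L (0.671 and 0.670) and below that of the X (0.779 and 0.749).

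Scores showed one further pattern along the arm. Across the 51 bins, the median score of the members had a Spearman rho of 0.51 with distance from the centromere, and the 3 parts from the centromere outwards had medians of 0.449, 0.463 and 0.472. In the replicate lists the rho was 0.22 and 0.17, and the medians of the parts were 0.676, 0.683 and 0.688 in replicate 1 and 0.678, 0.671 and 0.681 in replicate 2. The rise was thus small in every list and not ordered in replicate 2.

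The replicates gave most members like scores, and the largest exceptions came side by side. Among the 692 members with 1 region in each replicate, replicate scores were correlated across members, with Spearman's rho at 0.77 and Pearson's r at 0.85. The scores lay within 0.2 of each other in 529 (76.4%) of them, and 10 differed by 0.5 or more. Of those, 3 were higher in replicate 1 and 7 in replicate 2. The 4 largest differences formed 2 neighbouring pairs. These stretches were chosen after their values were seen, and they carry no test.

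Near the boundary a group of Pol II regions was stronger in replicate 1. The member from 2059432 to 2064160 was 4725 bp wide with a score of 1.85 in replicate 1 and 2967 bp wide with 0.740 in replicate 2, which put it at rank 34 in one list and 2153 in the other. Its neighbour from 2073850 to 2078852 was 5061 bp wide with a score of 1.65 in replicate 1 and 1708 bp wide with 0.598 in replicate 2. The next member, from 2085169 to 2088941, scored 0.978 in replicate 1 and had no region in replicate 2. A further one, from 2123990 to 2130013, scored 1.12 and 0.697. On the centromere side the differences were smaller and went both ways. The member from 2034024 to 2040063 scored 0.746 in replicate 1 and 0.954 in replicate 2, and that from 2023586 to 2025663 scored 0.746 and 0.559. A narrower one, from 2012135 to 2014047, was listed in replicate 2 only, with 0.376.

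Far out on the arm a group of regions was stronger in replicate 2. The member from 22443838 to 22452329 was 3 regions with a best score of 1.50 in replicate 1 and a single region of 8594 bp with 2.38 in replicate 2. That from 22456633 to 22460866 was 2410 bp wide with a score of 0.916 in replicate 1 and 3306 bp wide with 1.97 in replicate 2. The next strong one, from 22464698 to 22468434, scored 1.67 in replicate 1, at rank 81, and 2.56 in replicate 2, at rank 3. On the telomere side members differed less, by 0.25 in favour of replicate 2 from 22481319 to 22484433 and by 0.02 in favour of replicate 1 from 22506644 to 22508670. On the centromere side the picture was mixed. The member from 22409449 to 22415781 had best scores of 0.992 in replicate 1 and 1.24 in replicate 2, that from 22416066 to 22418369 was listed in replicate 1 only, with 0.774, and that from 22403208 to 22407193 in replicate 2 only, with 0.671. The largest differences in the 2 stretches thus went in opposite directions. Near the boundary the members that start at 2059432 and 2073850 were stronger and wider in replicate 1. Whether the replicates came from separate embryo collections is not given in the labels, and the cause of these differences was not tested.

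**Figure D4:**
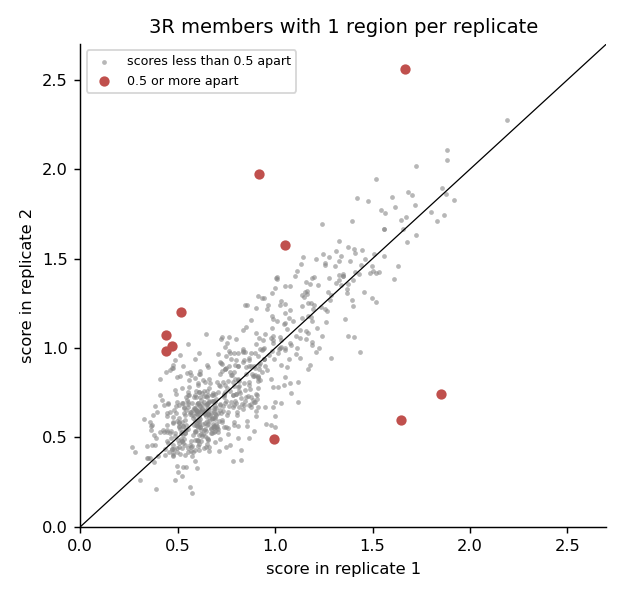
Score in replicate 1 (x axis) against score in replicate 2 (y axis) for the 692 members of 3R with exactly 1 region in each replicate, with the line of equal scores. Red points are the 10 members whose scores differ by 0.5 or more. The 4 farthest from the line are the neighbouring pair near the 2 Mb boundary (below the line) and that starting at 22456633 and 22464698 (above the line).

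The Hox clusters lie in 2 stretches of the arm. In the fly the Antennapedia complex holds labial (*lab*), proboscipedia (*pb*), Deformed (*Dfd*), Sex combs reduced (*Scr*) and Antennapedia (*Antp*), which pattern the head and the front thorax. The bithorax complex holds Ultrabithorax (*Ubx*), abdominal A (*abd-A*) and Abdominal B (*Abd-B*), which pattern the hind thorax and abdomen and are known for long stretches of regulatory DNA and control by Polycomb proteins. All 8 genes are on 3R in the RefSeq gene table of release 6, in that order. The table gives no release 5 positions and was used for gene order alone. It lists 17 protein-coding genes between *lab* and *Antp*, among them *Edg84A* and the *Ccp84A* genes, which encode cuticle proteins. Between *Ubx* and *Abd-B* it lists 4, one of them *abd-A*. The stretches used here were 2400001 to 2900000 for the Antennapedia complex and 12400001 to 12900000 for the bithorax complex. They were set on a 100 kb grid from general knowledge of the release 5 map, they include genes outside the complexes, and single regions were not assigned to genes.

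Taken as a pair, the Hox stretches had fewer and lower Pol II regions than the rest of the arm. In the whole-series list and replicate 1 the lower number rested mainly on the Antennapedia stretch, while in replicate 2 both stretches were sparse. That stretch had 54 members per Mb and the bithorax stretch 80, against 80.9 in the rest of 3R. The replicates had 24 and 26 regions per Mb in the Antennapedia stretch and 40 and 30 in the bithorax stretch. Both stretches together held 32 regions in replicate 1 and 28 in replicate 2 over 1 Mb (30.0 ± 2.8, SD, n = 2), where the rest of 3R had 42.7 and 43.2 per Mb. They were covered to 6.58% and 6.00%, and the rest to 10.4% and 10.6%. The median score was 0.560 and 0.553 in the stretches and 0.685 and 0.678 elsewhere. In the whole-series list they held 67 members, which covered 12.6% of the bases against 19.5% elsewhere. For the pair of stretches these replicate differences were larger than the spread between replicates, but bins of 500 kb along the arm also varied widely. Among 255 overlapping windows of 500 kb taken every 100 kb, 26 held fewer members than the Antennapedia stretch and 133 fewer than the bithorax stretch, and 14 and 67 had fewer bases covered. In the replicate lists 13 and 21 windows held fewer regions than the Antennapedia stretch, which was thus among the sparser windows in every list. For the bithorax stretch the number was 121 in replicate 1 and 40 in replicate 2, so its place by count depended on the list. By bases covered, 15 and 36 windows lay below the Antennapedia stretch in replicates 1 and 2, and 65 and 17 below the bithorax stretch. In replicate 2 the bithorax stretch was thus the less covered one (5.58% against 6.42%).

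The Antennapedia stretch held 27 members, with 12 regions in replicate 1 and 13 in replicate 2. Of the 27, 9 overlapped both replicates (33.3%, Wilson 95% interval 18.6 to 52.2, against 37.9% over all 3R members), 8 one and 10 neither. The share of the arm lay inside the interval. A single member stood out. It ran over 9877 bp from 2633205 to 2643081 with a score of 0.951, and was a single region of 8459 bp with a score of 1.03 in replicate 1 and of 9912 bp with 0.999 in replicate 2. It ranked 21 by width among all members of 3R. The next widest were 2777 bp, from 2511509 to 2514285, with replicate scores of 0.734 and 0.810, and 2773 bp, from 2591071 to 2593843, with 0.550 and 0.752. Of the 5 widest, that from 2481923 to 2484634 overlapped neither replicate, and that from 2891695 to 2893919 overlapped replicate 1 only. The median gap between members was 13311 bp in this stretch, against 3555 bp over the arm, and the longest was 52086 bp.

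The bithorax stretch held 40 members, with 20 regions in replicate 1 and 15 in replicate 2. Of the 40, 12 overlapped both replicates (30.0%, interval 18.1 to 45.4, against 37.9% over all 3R members), 11 one and 17 neither. The share of the arm lay inside the interval. No member of the stretch was wider than 3130 bp, and none of its replicate regions was wider than 2353 bp. The widest, from 12821210 to 12824339, scored 0.827 in replicate 1 and 0.374 in replicate 2. The others of the 5 widest started at 12881357, 12572765, 12844972 and 12867786, were 2585 to 2943 bp wide and scored 0.244 to 0.454. Of the 5 widest, the one that starts at 12572765 overlapped neither replicate and the one that starts at 12867786 overlapped replicate 2 only.

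High scores in the bithorax stretch belonged to other, narrower members, which were picked by score after the values were seen. The member from 12878654 to 12880858 scored 1.14 in replicate 1 and 1.17 in replicate 2. From 12812330 to 12814483 the scores were 0.934 and 1.28, and from 12758824 to 12761011 they were 1.18 and 0.903. These were the 3 of 40 members (7.5%) with a whole-series score of 1 or more here, a share near the 7.85% in the rest of 3R. All 3 lay in the telomere-side part of the stretch. They were followed by 12654321 to 12656752, with 0.888 and 0.710, and by 12450028 to 12452170, with 0.995 and 0.492. All 5 were a single region of about 2 kb in each replicate, between 1975 and 2353 bp wide. The longest gap was 59390 bp, just after the member that ends at 12575468.

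**Figure D5:**
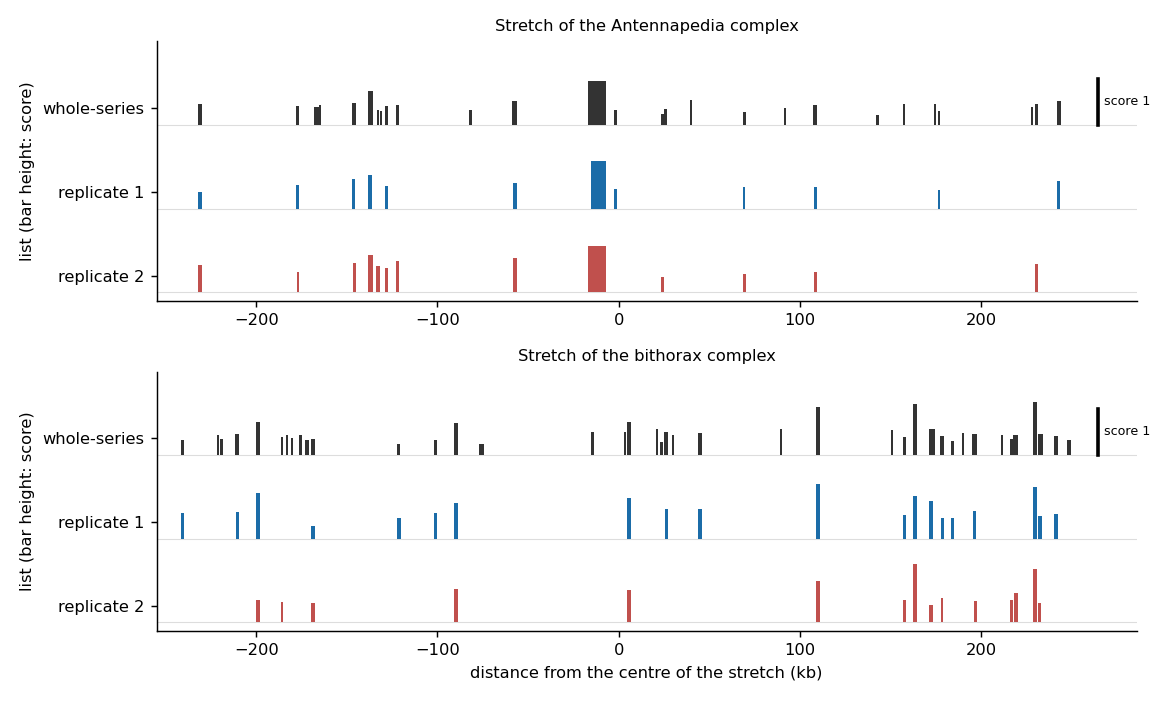
Regions of the whole-series list and of both replicates in the stretches of the Antennapedia complex (upper) and the bithorax complex (lower), by distance from the centre of each 500 kb stretch (x axis, kb). Bar width is region width and bar height is the score, with a scale bar for a score of 1. One region of 9877 bp stands out in the upper map, while the lower map has only regions of 3130 bp or less.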

How the data were processed

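Per the submitters' processing notes, Bowtie 0.12.7 was used, and the file headers name FlyBase release 5. The authors deposited lists of enriched regions, with first and last base and a score for each, per ChIP replicate and for the replicate set. The sources used here do not give the caller, its threshold, the score's formula or how the replicates were combined. The lists hold no counts, so depth is unknown.

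Regions were assigned by midpoint, and an overlap was 1 bp or more. Results are given for the whole-series list and as mean ± SD over the 2 replicate lists. That spread may be technical, since the labels do not say whether embryos were collected separately. With 2 libraries of a single group, no test was run. The named regions were the 10 highest-scoring and 10 widest members in both replicates, the 3 highest-scoring in neither, the 5 widest of each Hox stretch, the 5 on each side of the boundary, the 5 densest and 5 sparsest bins and the 5 longest gaps. Others were named after their values were seen. Members and lists were chosen with earlier results of these data known. Alternatives were a filter at each list's median score, merging within 500 bp, boundaries of 1 and 3 Mb, other overlap rules, narrower Hox stretches and leaving out each replicate. The functions for overlap, gaps and density were tested on simulated data. The software was Python 3.11.15 with numpy 2.4.6, scipy 1.17.1, pandas 2.3.3 and matplotlib 3.10.9.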

Additional observations from a re-analysis of the deposited data

How the results depend on the processing

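For 11 results, 16 values under other settings stayed within the spread of the replicates (for the overlap share, within its Wilson interval), 36 moved beyond it and 5 changed sides. With 2 replicates, the 20 values with a replicate left out lie within that spread by construction and show nothing about stability, and 1 changed sides. The lower density and coverage of the Hox stretches kept its direction under every alternative run. Density of the centromere-side part over the outer part, 1.00 over both replicates, had no stable direction. It was 0.984 to 1.02 with a replicate left out, 0.992 for the higher-scoring regions of each list, 0.992 after merging, 0.992 for 2 equal parts of the arm, 0.937 in the whole-series list, and 1.03 for boundaries of both 1 and 3 Mb. Density over 2L, 3L and X turned from 0.989 to 1.02 with a 1 Mb boundary on each arm, and was 0.893 for the higher-scoring regions and 0.983 in the whole-series list. The higher-scoring regions, those not below their list's median, are fewer by construction and gave 20.0 regions per Mb, 6.21% covered, a median width of 2296 bp, a median gap of 24304 bp and a median score of 0.919. They also gave 1.91 for the ratio of regions of 10 kb or more, 0.416 and 0.403 for Hox density and coverage over the rest (0.699 and 0.599 over all regions), and 40.1% of members in both replicates. Merging gave 39.7 regions per Mb, a median width of 2080 bp, a median gap of 10892 bp, a median score of 0.686 and a ratio of wide regions of 1.58. The 1 Mb boundary gave 43.0 regions per Mb, 10.5% covered and a wide ratio of 1.97, and the 3 Mb boundary gave a median width of 2061 bp and a wide ratio of 1.71. The ratio was 1.41 for regions of 5 kb or more. The middle 300 kb of each Hox stretch gave 0.544 for density and 0.541 for coverage. Reciprocal overlap of 50% left 32.1% of members in both replicates, and extension by 500 bp gave 45.5%. The whole-series list, added after seeing the data, gave 80.3 regions per Mb, 19.3% covered, a median width of 1947 bp, a median gap of 3555 bp, a median score of 0.462, a wide ratio of 1.06, and Hox ratios of 0.829 and 0.647. The share in both replicates needs both lists, so it has no value without one of them, and the Hox ratios were not run with a 3 Mb boundary, which removes the Antennapedia stretch. For other shifts the cause was not tested. No paired analysis was possible because the ChIP libraries form a single group and no separate values for the inputs were analysed.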
